A study of Mus musculus with 12 samples.

Results

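The small leucine-rich proteoglycans (SLRPs) were examined in single tendon cells of mice with and without tenomodulin. Their members were taken by symbol as 10 of the 55418 gene rows of the raw count table: Dcn, Bgn, Fmod, Lum, Prelp, Ogn, Aspn, Kera, Omd and Podn. Of these, 8 reached 20 counts over all cells, whereas Kera and Podn had 0 counts in every cell.

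The data hold 6 Tnmd-/- ScxGFP+ and 6 WT ScxGFP+ cells from untreated, uninjured Achilles tendons of mice on a C57BL/6 background. Both groups carried the ScxGFP transgene, a green fluorescent reporter for Scx, a transcription factor of the tendon lineage, and the Tnmd knockout was constitutive, so it was present in every tissue. Because Tnmd lies on the X chromosome, the study's WT group included heterozygous females beside hemizygous males and homozygous females. Cells were released by collagenase for 8 h, picked by their fluorescence with a micromanipulator and amplified by Smart-Seq2, which reads cDNA along the transcript and tags no molecules. Each library is 1 cell. The methods give n = 2 for the source tendons, read here as 2 per genotype. No label ties a cell to an animal. Each genotype was therefore treated as 1 sample, and no test between genotypes was made. Cells are named by the number in their label.

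Values are counts scaled to a total of 1e+06 (CPM), either of 1 cell or of the summed counts of the 6 cells of a genotype (pooled CPM). Intervals are exact 95% intervals on read counts and cover the counting error of reads only. Reads copied by amplification, with no molecular tags, cannot be taken as separate molecules. The intervals are therefore too narrow for the counting error of molecules. Total counts ranged from 892713 to 10333351 in the Tnmd-/- cells and from 4516036 to 13613080 in the WT cells. The colour bar over the study's heat map marks 3 cells of each genotype as more degraded (Tnmd-/- cells 1, 3 and 7, and WT cells 1, 2 and 14), and the pooled values of the 10 genes were also computed within each level. Tnmd-/- cell 3 stood apart with 51.8% of its counts from mitochondrial genes, against 1.75% to 7.30% in the other 11 cells. Tnmd, the deleted gene, had 8 counts over 3 of the 6 Tnmd-/- cells, and in the WT group 10178 of 10185 counts came from cell 14, so the absence of Tnmd counts did not separate the genotypes cell by cell. Scx had at least 10 counts in 3 WT cells and in 0 Tnmd-/- cells.

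SLRPs are secreted proteins with a core of leucine-rich repeats, which in tendon bind collagen fibrils and are known to influence their diameter and packing. Decorin (Dcn), biglycan (Bgn) and asporin (Aspn) form class I. Fibromodulin (Fmod), lumican (Lum), prolargin (Prelp), keratocan (Kera) and osteomodulin (Omd) form class II, osteoglycin (Ogn) belongs to class III and podocan (Podn) to a non-canonical class. Decorin and biglycan carry chondroitin or dermatan sulfate chains, several class II members carry keratan sulfate, and some members also bind growth factors such as TGF-beta.

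SLRP transcripts took 2.72% to 13.6% of all counts in the WT cells and 0.140% to 7.82% in the Tnmd-/- cells. Nearly all of this was Dcn, which supplied 93.2% of the SLRP counts in the pooled WT cells and 96.1% in the pooled Tnmd-/- cells. Per length, as CPM per kb of exon, the pooled WT cells held Dcn at 9651, Bgn at 287, Prelp at 251, Fmod at 202, Lum at 163, Aspn at 155 and Omd at 10.3. The pooled Tnmd-/- cells began with the same pair, Dcn at 6853 and Bgn at 160, but Omd followed at 100.3, then Fmod at 58.2 and Prelp at 58.1, with Ogn at 2.87, Aspn at 2.00 and Lum at 0.466. Dcn and Bgn thus led in both genotypes, while the order below them differed between the pooled sums and rested largely on single cells. In the Tnmd-/- sum, cell 10 held 99.9% of the Omd counts, cell 20 98.5% of Fmod and cell 3 100% of Ogn. In the WT sum, cell 5 held 85.1% of the Lum and 86.6% of the Aspn counts. Prelp was spread more widely, with at most 56.0% (Tnmd-/-) and 41.9% (WT) of its counts in 1 cell. Fmod and Prelp in the Tnmd-/- cells, and Lum and Aspn in the WT cells, lay next to each other in level, far closer than their cells.

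**Figure D1:**
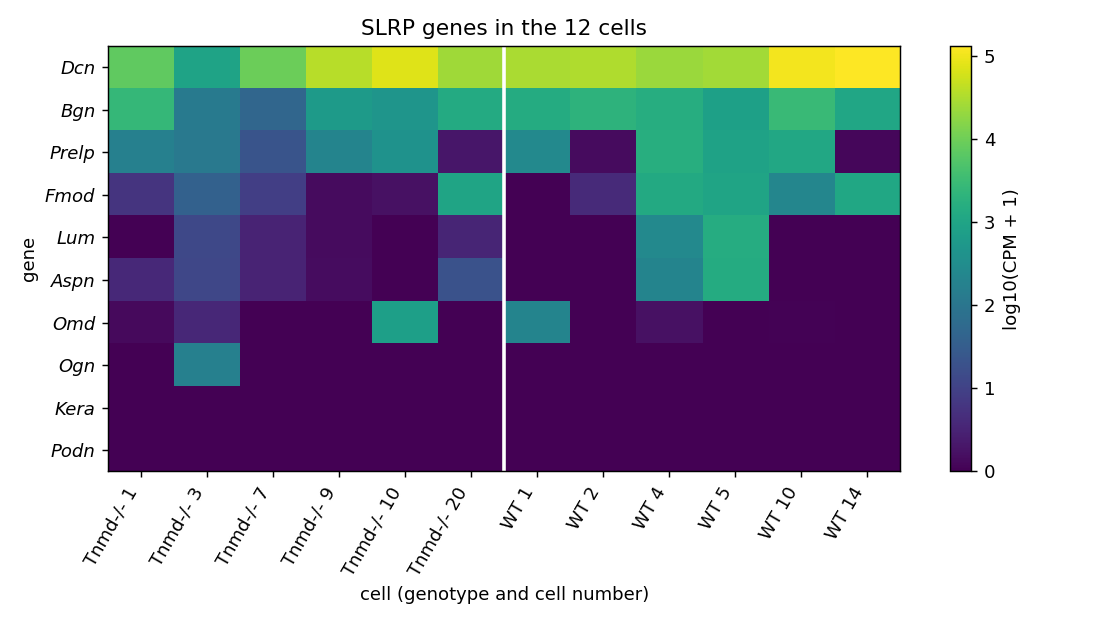
Heat map of log10(CPM + 1) for the 10 SLRP genes (rows) in the 12 cells (columns, Tnmd-/- left and WT right of the white line). Dcn and Bgn were counted in all 12 cells, Lum and Aspn were high in WT cells 4 and 5, Omd in Tnmd-/- cell 10 and WT cell 1, and Kera and Podn were at 0.

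Pooled over cells, the 10 genes together reached 41628.6 CPM among Tnmd-/- cells against 60450.5 CPM among WT cells, a log2 ratio of −0.54 (−0.54 to −0.54). Without Dcn the remaining 9 had 1619 and 4110.2 CPM, a log2 ratio of −1.34 (−1.36 to −1.33). For these 9 it was −1.70 (−1.72 to −1.69) in the less degraded cells. In the more degraded cells it was −0.037 (−0.065 to −0.0089), from 1978 and 2030 CPM. By a fold of at least 2 in the pooled values, Fmod, Lum, Prelp and Aspn were lower in the Tnmd-/- sum (4 of the 8 genes with a ratio or bound) and Omd and Ogn were higher (2 of 8). Lum had counts in 4 Tnmd-/- and 2 WT cells and Aspn in 5 and 2. Their median CPM over cells was 1.31 and 2.53 for Tnmd-/- against 0 for WT. For Fmod and Prelp the median was lower in the Tnmd-/- cells. Among all 9768 genes with at least 20 counts, 38.3% were at least 2-fold lower and 39.7% at least 2-fold higher, so folds of this size were common in these 12 cells and the members' counts lie near that background. The median log2 ratio over those genes was 0.08. For none of the 8 genes did the 6 Tnmd-/- cells lie wholly apart from the 6 WT cells, as was the case for 0.041% of all genes (4 genes). The summed ratio rested on WT cell 10 in particular, and was −0.031 without it and −1.19 without Tnmd-/- cell 10.

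Dcn (ENSMUSG00000019929, GRCm38 chr10:97479609-97518143, plus strand), the major tendon SLRP, was counted in every cell. The Tnmd-/- cells ranged from 928 CPM in cell 3 through a median of 17364.5 to 76582 CPM in cell 10. The WT cells ranged from 22269.8 CPM in cell 4 through a median of 31125 to 133605 CPM in cell 14. The highest WT cell had 6.00 times the lowest and the highest Tnmd-/- cell 82.5 times the lowest, and without cell 3 the lowest Tnmd-/- value was 7337 CPM, in cell 1. Cells 1, 3 and 7 of the Tnmd-/- group, the last with 9600 CPM, lay below all 6 WT cells, while cells 9, 10 and 20 lay within the WT range. Dcn was the gene with the most counts in Tnmd-/- cells 10 and 20 and in WT cells 10 and 14, and ranked between 2 and 5 in Tnmd-/- cell 9 and the other WT cells. In Tnmd-/- cells 1, 3 and 7 it ranked 13, 135 and 9.

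Those 3 cells low in Dcn are the 3 Tnmd-/- cells marked as more degraded. In the more degraded cells, pooled Dcn was 6348 CPM for Tnmd-/- against 61213 CPM for WT, a log2 ratio of −3.27 (−3.28 to −3.26). In the less degraded cells it was 49486 and 54379 CPM, a log2 ratio of −0.14 (−0.14 to −0.13). The WT cells of both levels overlapped, and WT cell 14, marked as more degraded, had the highest Dcn value of the 12 cells. The pooled log2 ratio over all cells, −0.49 (−0.50 to −0.49), moved to 0.054 without WT cell 10, which held 49.0% of the WT Dcn counts, and to −1.18 without Tnmd-/- cell 10, which held 56.2% of the Tnmd-/- counts. Degradation level moved with Dcn among the Tnmd-/- cells, and its part in the difference was not tested.

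Bgn (ENSMUSG00000031375, chrX:73483602-73495933, plus strand), the close relative of Dcn, was also counted in all 12 cells. Its Tnmd-/- values ran from 49.3 CPM in cell 7 through a median of 554 to 2541 CPM in cell 1. Its WT values ran from 799.5 CPM in cell 5 through a median of 1507 to 3025 CPM in cell 10. The groups overlapped, with Tnmd-/- cells 1 and 20 inside the WT range and the other 4 below it. Pooled, the log2 ratio was −0.84 (−0.86 to −0.82), from 978 and 1749 CPM. In the less degraded cells it was −1.29 (−1.32 to −1.27). In the more degraded cells alone it was 0.23 (0.20 to 0.26), with 13495 of the 13723 Tnmd-/- counts in cell 1, the highest cell. Tnmd-/- cells 3 and 7, at 122 and 49.3 CPM, lay below all WT cells. Bgn did not follow Dcn across cells, with a Spearman correlation of 0.19 over the 12 cells.

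**Figure D2:**
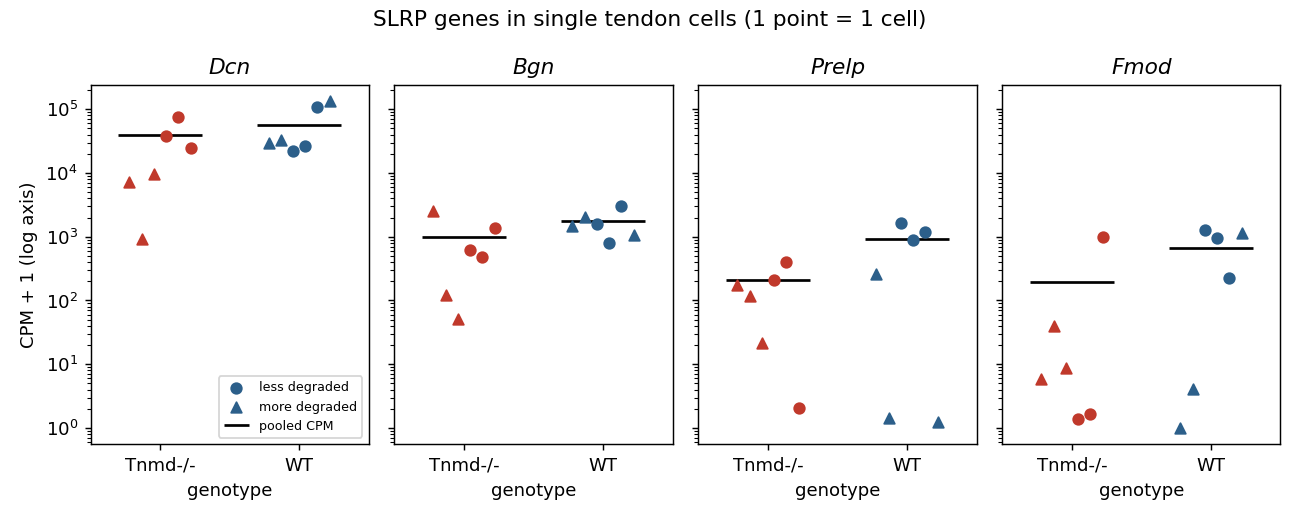
CPM + 1 on a log axis for Dcn, Bgn, Prelp and Fmod, 1 point per cell (circles less degraded, triangles more degraded, red Tnmd-/-, blue WT), with a black line at the pooled CPM plus 1. Dcn was low in the 3 more degraded Tnmd-/- cells, at 928 to 9600 CPM, and Fmod was at most 3.11 CPM in Tnmd-/- cells 9 and 10 and WT cells 1 and 2.

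Fmod (ENSMUSG00000041559, chr1:134037254-134048277, plus strand) and Prelp (ENSMUSG00000041577, chr1:133910304-133921414, minus strand) are class II genes that neighbour each other on chromosome 1. Fibromodulin competes with lumican for sites on collagen. Fmod was divided sharply between cells of the same genotype. In the Tnmd-/- group, cell 20 had 985.5 CPM and the next cell, cell 3, had 38.5 CPM, with a median of 6.37 and a lowest value of 0.387 CPM. In the WT group, cells 4, 14, 5 and 10 had 1278, 1128, 965.6 and 223 CPM, whereas cell 2 had 3.11 CPM and cell 1 had 0. At least 10 counts were found in 3 Tnmd-/- and 5 WT cells. The pooled log2 ratio of −1.80 (−1.83 to −1.76) compared 192 with 668 CPM, and 98.5% of the Tnmd-/- counts came from cell 20. Without that cell the ratio was −7.54. Fmod was lower in the Tnmd-/- sum at both levels, at −1.72 (−1.76 to −1.69) in the less and −4.82 (−5.13 to −4.52) in the more degraded cells. Of the 5111 WT counts in the more degraded cells, 5096 came from cell 14. WT cells 1 and 2, at 0 and 3.11 CPM, lay below Tnmd-/- cells 1, 3 and 7, at 4.90, 38.5 and 7.84 CPM.

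Prelp, a basement membrane and cartilage SLRP that binds heparan sulfate, had at least 10 counts in 5 Tnmd-/- and 4 WT cells. The Tnmd-/- values ran from 1.04 CPM in cell 20 through a median of 146 to 400.4 CPM in cell 10. The WT values ran from 0.221 CPM in cell 14 through a median of 574 to 1624 CPM in cell 4. WT cells 4, 5 and 10 lay above all Tnmd-/- cells, WT cell 1 at 259 CPM lay among them, and WT cells 2 and 14 lay below all Tnmd-/- cells. In the sums the log2 ratio was −2.11 (−2.14 to −2.07), from 209.96 and 906 CPM. It was −2.43 (−2.47 to −2.39) in the less degraded cells and turned to 0.51 (0.40 to 0.63) in the more degraded cells. Gm15851, annotated on the opposite strand, covers 9.68% of the Prelp exon bases, and the strand of counting is not given in the sources used here, so some Prelp reads could belong to it.

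Fmod and Prelp did not rise and fall together, with a Spearman correlation of 0.01 over the 12 cells. Tnmd-/- cell 20 and WT cell 14 had Fmod at 985.5 and 1128 CPM with Prelp at 1.04 and 0.221 CPM. Tnmd-/- cells 9 and 10 had the reverse, with Prelp at 205 and 400.4 CPM and Fmod at 0.387 and 0.679 CPM. Both genes were high in WT cells 4, 5 and 10. WT cell 14 was the cell with nearly all Tnmd counts.

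Lum (ENSMUSG00000036446, chr10:97565128-97572703, plus strand) lies downstream of Dcn on chromosome 10, and lumican, best known from the cornea, binds collagen fibrils there and in tendon. Lum was high in 2 WT cells. WT cell 5 had 1514.5 CPM and WT cell 4 had 255 CPM, while the other 4 WT cells had 0 counts. Among the Tnmd-/- cells the highest value was 11.96 CPM in cell 3 (18 counts), followed by 2.37 CPM in cell 20 (16 counts), with a median of 1.31 CPM and a lowest value of 0. The pooled log2 ratio was −8.46 (−8.94 to −8.01), from 1.14 and 400.2 CPM, with 85.1% of the WT counts in cell 5. Without WT cell 5 it was −6.08. With DESeq2 size factors it was −4.98, and as a difference of mean log2(CPM + 1) over cells it was −1.82. As 4 of 6 WT cells had 0 counts of Lum, the size of this ratio describes those 2 cells.

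Aspn (ENSMUSG00000021388, chr13:49544443-49567565, plus strand), whose product binds collagen and TGF-beta, was high in the same 2 WT cells. WT cell 5 had 1401 CPM and WT cell 4 had 209 CPM, and the other 4 WT cells had 0 counts. The Tnmd-/- cells ran from 0 through a median of 2.53 to 18.7 CPM in cell 20. The pooled log2 ratio was −6.27 (−6.50 to −6.05), from 4.70 and 364 CPM. It was −3.74 without WT cell 5, −8.05 without Tnmd-/- cell 20 and −4.22 with DESeq2 size factors. Lum and Aspn had a Spearman correlation of 0.90 over the 12 cells, with at least 10 counts of both in 4 cells, although they lie on different chromosomes. Both were negatively correlated with Dcn, at −0.55 for Lum and −0.70 for Aspn, and these correlations contain many cells at or near 0.

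Of the marker lists reported here, only the mural list was highest in WT cell 5, with 641 CPM. It was 0 to 118 CPM in the Tnmd-/- cells and 0 to 44.3 CPM in the other WT cells. Of its 5 genes 1 was counted, Cspg4, and the defining genes Rgs5, Acta2, Myh11 and Mcam were at 0 in all 12 cells. In the more degraded cells alone no WT cell had Lum or Aspn counts, so the Tnmd-/- sums of 20 and 34 counts gave bounds of at least 3.73 and 4.49 on the log2 scale in the other direction.

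Aspn, Omd and Ogn follow each other on the plus strand of chromosome 13. Aspn and Omd had at least 10 counts together in no cell. The only cell with Ogn, Tnmd-/- cell 3, also had 17 counts of Aspn and 4 of Omd. Shown are the 250 bases before each annotated start (RefSeq, GRCm38.p6, 5′ to 3′). Capitals mark CANNTG, the E-box letters that basic helix-loop-helix factors such as Scx bind. Whether these letters bear on the counts was not tested. The windows are chr13:49544193-49544442 for Aspn, chr13:49582212-49582461 for Omd and chr13:49607765-49608014 for Ogn, all on the plus strand.
Aspn: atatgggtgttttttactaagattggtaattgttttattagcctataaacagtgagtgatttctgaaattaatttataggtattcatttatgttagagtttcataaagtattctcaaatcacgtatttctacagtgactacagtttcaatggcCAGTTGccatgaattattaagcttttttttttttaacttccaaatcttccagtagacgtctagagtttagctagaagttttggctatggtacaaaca
Omd: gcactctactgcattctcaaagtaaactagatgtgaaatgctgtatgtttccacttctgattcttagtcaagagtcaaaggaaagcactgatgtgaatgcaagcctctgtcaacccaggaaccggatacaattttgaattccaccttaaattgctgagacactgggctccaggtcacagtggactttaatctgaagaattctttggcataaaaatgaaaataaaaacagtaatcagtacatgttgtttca
Ogn: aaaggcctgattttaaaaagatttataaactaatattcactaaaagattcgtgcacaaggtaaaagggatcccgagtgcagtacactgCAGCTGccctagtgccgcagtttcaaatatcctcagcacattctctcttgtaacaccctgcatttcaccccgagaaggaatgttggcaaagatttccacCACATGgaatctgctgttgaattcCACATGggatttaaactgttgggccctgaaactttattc
The Aspn window holds 1 such match, the Omd window 0 and the Ogn window 3. CANNTG reads the same on both strands as a pattern, and 66.2% of 32851 annotated promoters hold it in 250 bases. Of the members, 8 were matched in the RefSeq promoter table. A match is a description of letters and not of a bound site.

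Omd (ENSMUSG00000048368, chr13:49582462-49592822, plus strand), a keratan sulfate SLRP known from bone, was seen in 1 cell of each genotype. Tnmd-/- cell 10 had 768 CPM (7912 counts) and WT cell 1 had 204 CPM (1224 counts). The other cells had at most 2.66 CPM (Tnmd-/-) and 0.722 CPM (WT). The pooled log2 ratio of 3.29 (3.20 to 3.38), from 226 and 23.1 CPM, became −6.58 without Tnmd-/- cell 10 and 10.06 without WT cell 1. Its sign was thus set by single cells. In the less degraded cells it was 10.10 (9.23 to 11.17) and in the more degraded cells −6.68 (−8.13 to −5.55).

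Ogn (ENSMUSG00000021390, chr13:49608046-49624501, plus strand), which encodes osteoglycin, was counted in Tnmd-/- cell 3, with 258 counts (171 CPM), and at 0 in the other 11 cells. Taking 3 counts as the floor for the WT sum, this was 131-fold higher in the Tnmd-/- sum, and it rested on the 1 cell with mostly mitochondrial counts. That cell also had 17 counts of Aspn and 4 of Omd. Aspn and Omd were not seen together with at least 10 counts each in any of the 12 cells. All 3 genes lie within the span of Cenpp, annotated on the opposite strand, which shares 0.297% of the exon bases of Aspn and none of those of Omd and Ogn.

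Kera (ENSMUSG00000019932, chr10:97606879-97613692, plus strand), a corneal SLRP next to Lum, and Podn (ENSMUSG00000028600, chr4:108014791-108096445, minus strand) had 0 counts in the 12 cells. A sum of 0 allows up to 3 counts, which is 0.0855 CPM for Tnmd-/- and 0.0561 CPM for WT. Neither gene was detectable at this depth.

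**Figure D3:**
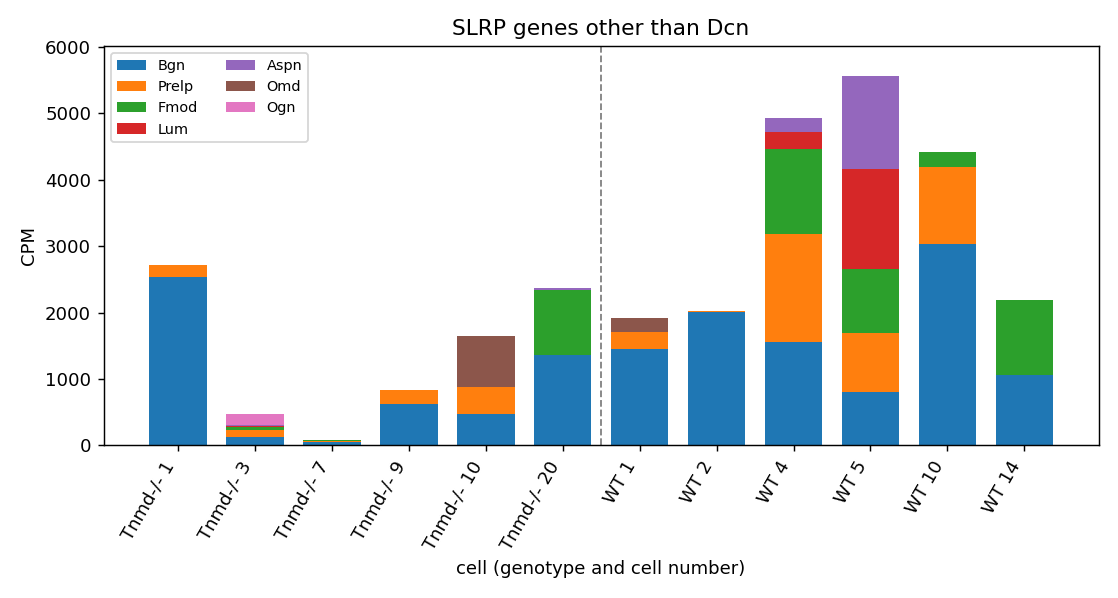
Stacked CPM of the SLRP genes other than Dcn in each cell (dashed line between Tnmd-/- and WT). The sums ran from 81.8 to 2723 CPM among Tnmd-/- and from 1919 to 5568 CPM among WT cells, and WT cells 4 and 5 combined Bgn, Prelp, Fmod, Lum and Aspn.

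The cells thus held different sets of SLRPs. In a Tnmd-/- cell 3 to 7 members had at least 10 counts (median 4.5), and in a WT cell 3 to 6 members (median 4). WT cells 4 and 5 had the same 6 members, Dcn, Bgn, Fmod, Prelp, Lum and Aspn. WT cell 2 had Dcn, Bgn and 15 counts of Fmod. Tnmd-/- cell 3 had 7 members, with Dcn at 66.1% of its SLRP counts, the lowest share of the 12 cells. The sum without Dcn was 4418 to 5568 CPM in WT cells 4, 5 and 10 and at most 2723 CPM in the other 9 cells. With every cell thinned to 892713 counts, the depth of the shallowest cell, Tnmd-/- cells still had 3 to 7 and WT cells 2 to 6 members with at least 10 counts.

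**Figure D4:**
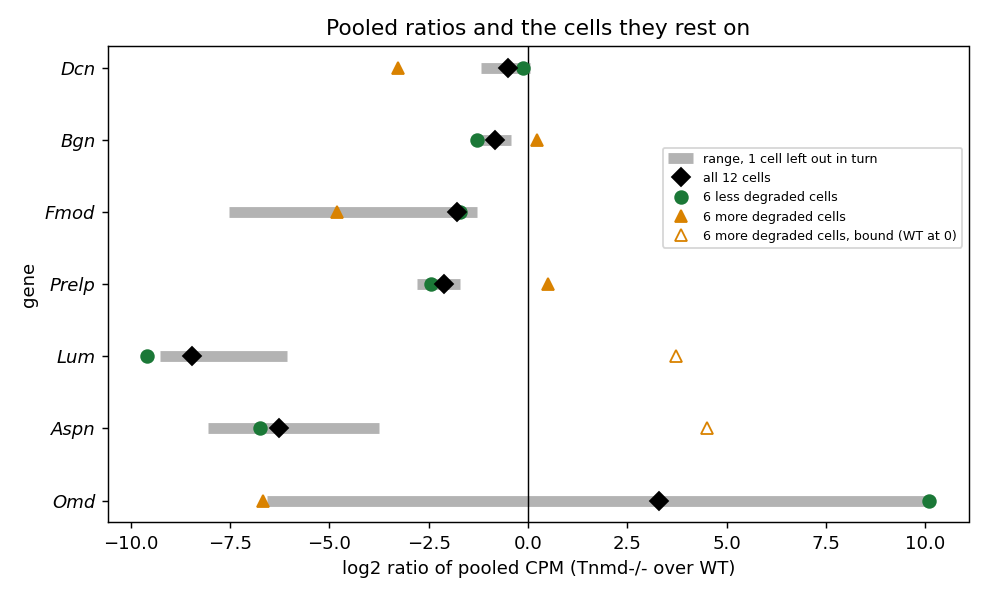
Log2 ratio of pooled CPM, Tnmd-/- over WT, for 7 SLRP genes (diamonds all 12 cells, circles less and triangles more degraded cells, open triangles bounds with WT at 0, grey bars the range when 1 cell was left out in turn). Fmod and Dcn were negative at both levels, whereas Bgn, Prelp, Lum, Aspn and Omd changed sign between levels. In the more degraded cells, the Fmod value rested on WT cell 14 and the Bgn value on Tnmd-/- cell 1.

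The summed tendon list did not separate the genotypes, at 11941 CPM for Tnmd-/- against 12459 CPM for WT. It ran from 717 to 19658 CPM in the Tnmd-/- cells, with cell 3 the lowest. The WT cells ran from 2970 to 42190 CPM, with cell 14 the highest. Of its 7 genes, 5 had at least 10 counts in the Tnmd-/- sum and 7 in the WT sum. Within it Tnmd had 0.228 and 191 CPM and Scx 0.0855 and 38.8 CPM. Col1a1 had 56.7 and 64.4 CPM and Col1a2 236.9 and 302.1 CPM, so all of these were lower in the Tnmd-/- sum. Both list sums came mostly from the other genes of the list, Mkx, Thbs4 and Comp. The cartilage list was 767 and 84.7 CPM, and reached 1330.5 and 1271 CPM in Tnmd-/- cells 9 and 10, but Col2a1, Col9a1, Matn3 and Cnmd were at 0 in all cells. Immune markers summed to 0.342 and 0 CPM, endothelial markers to 4.76 and 0.0749 CPM, and skeletal muscle markers to 0.256 and 0.0187 CPM. Endothelial markers were highest in Tnmd-/- cell 1, at 30.9 CPM, and the part of these genes in the SLRP values was not tested.

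4 members, Dcn, Bgn, Fmod and Prelp, had 10 counts or more in 6 or more cells. The genes whose CPM was ordered most alike over the 12 cells to theirs were sought among 1831 genes counted as widely. Dcn was closest to Chad (Spearman correlation 0.85), which encodes the leucine-rich matrix protein chondroadherin, then to Sarnp (0.81) and Dnajb9 (0.76). Bgn was closest to Sparc (0.90), a collagen-binding matrix protein, Clic4 (0.89) and Pgd (0.86). Fmod was closest to Atp5f1 (0.92), Atp6v1f (0.91) and Cct7 (0.85), and Prelp to Rhbdd1 (0.93), Wdr1 (0.90) and the collagen VI gene Col6a1 (0.87). These are the extremes of many correlations over cells that share library and genotype, and are given as a description.

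Among 9 other SLRP and related leucine-rich genes, 2 had at least 20 counts. Chad was abundant in both genotypes, at 8428 and 8028 CPM (log2 ratio 0.07, 0.06 to 0.08), and Ecm2 had 279.8 CPM for Tnmd-/- against 440.4 CPM for WT (−0.65, −0.69 to −0.62). Neither passed a fold of 2. Of 12 collagen genes 10 were measured, with 4 at least 2-fold lower, 1 higher and a median log2 ratio of −0.63, beside 38.3% lower, 39.7% higher and a median of 0.08 over all genes. The gene that was higher, Col6a3, had 1045 and 304 CPM (1.78, 1.76 to 1.81), while its partners Col6a1 and Col6a2 had ratios of −0.40 and 0.33. Col5a1 and Col14a1 were counted in 1 WT cell each, with 292 and 385 counts, and in 0 Tnmd-/- cells.

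Of 22 enzymes that build or modify the sugar chains of proteoglycans, 11 were measured, with 7 at least 2-fold lower and 4 at least 2-fold higher in the Tnmd-/- sum and a median log2 ratio of −2.39. Over all genes 38.3% were lower and 39.7% higher, with a median of 0.08. Xylt1, which starts the chain on the core protein, had 36.0 CPM for Tnmd-/- against 184 CPM for WT (−2.35, −2.44 to −2.27). Csgalnact2, which starts chondroitin sulfate, had 47.1 and 246 CPM (−2.39, −2.46 to −2.31), with 99.6% of its Tnmd-/- counts in cell 20. Fam20b, the kinase that phosphorylates the first xylose, went the other way, with 179 and 0.131 CPM (10.42, 9.37 to 11.73), and it had at least 10 counts in 4 Tnmd-/- and 0 WT cells. B4galt7 and Chst12 had 2 counts each in the Tnmd-/- sum and 3017 and 3272 counts in the WT sum, 100% and 99.8% of them in 1 WT cell, and Chst11 was counted in 1 Tnmd-/- cell, with 251 counts.

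Of 9 genes for procollagen and proteoglycan processing 5 were measured, with 3 lower, 0 higher and a median of −1.999, against 38.3%, 39.7% and 0.08 over all genes. Pcolce2, an enhancer of procollagen C-proteinase, was counted in all cells, at 3781 and 2990.2 CPM (0.34, 0.33 to 0.35), and Pcolce at 134 and 123 CPM (0.12, 0.07 to 0.18), with 99.8% of its Tnmd-/- counts in cell 20. Adamts5, an aggrecanase, had 211 and 843 CPM (−1.999, −2.03 to −1.96), Mmp2 was counted in 2 WT cells, with 320 counts, and Bmp1 had 3 counts in the Tnmd-/- sum and 1305 in WT cell 4. Of 14 receptors and growth factors that SLRPs are known to engage, 12 were measured, with 5 lower, 1 higher and a median of −0.04, against the same 38.3%, 39.7% and 0.08 over all genes. Lrp1, an endocytic receptor for decorin, was alike in the sums at 162.9 and 162.5 CPM (0.0035, −0.045 to 0.052), and Tlr2, bound by biglycan, had 85.2 and 357 CPM (−2.07, −2.12 to −2.01), with 99.5% of its Tnmd-/- counts in cell 9 and 66.2% of its WT counts in cell 4. Bmp2 had 202 and 105 CPM (0.95, 0.90 to 1.00). Egfr had 99.8% of its Tnmd-/- counts in cell 1, Met 92.0% of its WT counts in cell 5, and Bmp4 99.9% of its WT counts in cell 10. The values of Tlr2, Egfr, Met and Bmp4 thus rest on single cells in at least 1 genotype.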

How the data were processed

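The measured data were raw read counts per gene in 12 single cells, 6 of each genotype. The authors deposited these counts after alignment with STAR 2.5.1b to GRCm38 and counting with featureCounts of Subread 2.0.0, as named in the submitters' processing notes. They were counted by gene, are not normalised and hold no molecular identifiers, and the strand of counting is not given in the sources used here.

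Counts of each gene were divided by the total of a cell, or of the 6 cells of a genotype, and multiplied by 1e+06 (CPM). Ratios are log2 of pooled Tnmd-/- over WT CPM with exact Clopper-Pearson 95% intervals. Where 1 sum was 0, it was set to 3 counts and the ratio taken as a bound. Genes with at most 3 counts in both sums got none. A gene was seen in a cell with at least 10 counts, and values over all genes used those with at least 20 counts. Levels between genes were divided by summed exon length, which equalled GENCODE M21 for the 10 members. No doublet caller was run, since cells were picked singly, and no test was made. The pooled ratio script was tested on simulated data.

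The members, lists and rules were chosen with earlier results of these data known. Named are all members, Tnmd, Scx, some genes of the marker lists, and the 3 genes most correlated with each widely counted member. Of each list of related genes, at most the 2 lowest and the 2 highest ratios and the 2 genes with the most counts are named. Degradation levels were read from the colour bar over the study's heat map. Alternatives were equal weights for cells, TMM factors of edgeR 4.0.16, size factors of DESeq2 1.42.0, other library totals, each degradation level, each cell left out, the difference of mean log2(CPM + 1), a minimum of 100 counts, at least 1 count for a gene to be seen, and thinning to 892713 counts. The values of 1 list of marker genes are not reported here. The sum without Dcn was added after seeing the data. Python 3.11.15 (numpy 2.4.6, pandas 2.3.3, scipy 1.17.1) and R 4.3.3 were used.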

Additional observations from a re-analysis of the deposited data

Results flagged for a closer look

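The CPM of each gene, and of the 10 genes summed, was examined in the 6 cells of each genotype, which gave 17 groups with any counts. In 7 of them 1 cell lay far from the others by Dixon's criterion. The criterion flags about 5% of groups by chance if values are normally distributed, which does not hold for CPM with many cells at 0, so the number of such groups is a description.

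Among the Tnmd-/- cells, Fmod was 985.5 CPM in cell 20 and 38.5 CPM in the next cell. Omd was 768 CPM in cell 10, with the next cell at 2.66 CPM. Both values in cell 3, Lum at 11.96 CPM and Ogn at 171 CPM, came from the library with 51.8% mitochondrial counts.

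Among the WT cells, cell 5 stood apart for a pair of genes, Lum at 1514.5 CPM and Aspn at 1401 CPM, with WT cell 4 next at 255 and 209 CPM. Omd was 204 CPM in WT cell 1, with the next cell at 0.722 CPM. Dcn, Bgn and Prelp had no such cell in either genotype.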

How the results depend on the processing

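With 1 sample per genotype and 6 cells in each, single cells moved the values more than any counting interval. The summed log2 ratio of −0.54 stayed negative under every alternative run. It was −1.17 with equal weights for cells, −2.65 with DESeq2 size factors, −1.54 with TMM factors, −0.57 with library totals without mitochondrial and the most counted genes, −0.57 with totals without the 10 members, −0.22 in the less and −2.93 in the more degraded cells, and −1.34 without Dcn. Leaving out 1 cell gave −1.19 to −0.031. Over the 7535 genes counted in both genotypes the median log2 ratio was −0.03 pooled, −0.18 with equal weights, −0.46 with size factors and −0.40 with TMM factors.

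The number of members at least 2-fold lower (4) stayed between 3 and 6, but the genes were not always the same. In the more degraded cells the 3 lower members were Dcn (−3.27), Fmod (−4.82) and Omd (−6.68), and only Fmod was among the original 4. The number at least 2-fold higher (2) was 1 in the less and 3 in the more degraded cells, and 1 to 2 when a cell was left out, as Ogn was lost without Tnmd-/- cell 3 and Omd without Tnmd-/- cell 10. The sign turned in the more degraded cells for Bgn (0.23), Lum (3.73), Prelp (0.51), Aspn (4.49) and Omd (−6.68), for Dcn without WT cell 10 (0.054) and for Omd also without Tnmd-/- cell 10 (−6.58, against 10.06 without WT cell 1). The cause was not tested. Ogn gave no value in the less degraded cells or without Tnmd-/- cell 3. With a minimum of 100 counts, 39.7% of all genes were at least 2-fold lower and 37.1% higher. Counting a cell from 1 count raised Omd from 2 to 6 cells and Fmod from 8 to 11. No paired analysis was possible because no label ties a cell to an animal and no test was made.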
